A study of Mus musculus with 6 samples.

Results

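The immediate early genes of the AP-1 and Egr families were followed in cultured neural stem cells of the embryonic mouse, taken at 2 places along the ventricular wall. The 10 genes were Fos, Fosb, Fosl1, Fosl2, Jun, Junb, Jund, Egr1, Egr2 and Ier2, of 19938 genes that could be named on the arrays. They were chosen by symbol, as the probe sets that the platform annotation gives exactly 1 gene, and each of the 10 was found with 1 probe set. Cells from the subventricular zone of the third ventricle (3 arrays) were compared with cells from that of the lateral ventricle (3 arrays). All 6 samples came from wild type C57BL/6 female embryos at embryonic day 17.5, and both groups were grown in low-attachment dishes with FGF and EGF, each at 20 ng/ml. Such cultures are a model of the progenitors that survive and divide in these factors, and not of the intact ventricular wall.

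Immediate early genes are transcribed within minutes of a stimulus such as a growth factor, without new protein synthesis, and their mRNAs are short-lived. Fos and Jun proteins pair through leucine zippers to form AP-1, which binds the AP-1 site (TGACTCA) in target genes. Jun proteins can also pair with each other, whereas Fos proteins need a partner. Egr1 and Egr2 are zinc finger transcription factors that bind GC-rich sites. In growth factor signalling the ERK kinases phosphorylate ternary complex factors, which sit with serum response factor (SRF) on CArG boxes in promoters of several of these genes.

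The promoters of Egr2, Jun and Fos are shown because these genes carry the elements through which the families are known to be switched on, and because Egr2 and Jun were among the members clearly measured here while Fos was not. The 250 bases before the annotated start, from RefSeq on build GRCm38.p6, are given 5′ to 3′, with capitals on matches to the CArG box, the CRE core (TGACG), the CCAAT motif, the TATA motif (TATAAA) and the Jun proximal site (TGACATCA) on either strand.
Egr2, chr10:67537619-67537868, plus strand: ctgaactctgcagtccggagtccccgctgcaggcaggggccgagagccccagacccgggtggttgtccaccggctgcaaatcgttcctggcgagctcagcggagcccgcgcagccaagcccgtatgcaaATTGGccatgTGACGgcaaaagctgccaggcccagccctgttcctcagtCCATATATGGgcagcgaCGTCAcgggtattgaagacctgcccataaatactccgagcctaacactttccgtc
Jun, chr4:95052223-95052472, minus strand: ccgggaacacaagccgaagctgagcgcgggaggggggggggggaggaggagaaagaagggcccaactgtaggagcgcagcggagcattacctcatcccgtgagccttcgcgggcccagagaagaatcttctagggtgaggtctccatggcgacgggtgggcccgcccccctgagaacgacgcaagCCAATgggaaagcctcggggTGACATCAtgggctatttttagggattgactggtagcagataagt
Fos, chr12:85473640-85473889, plus strand: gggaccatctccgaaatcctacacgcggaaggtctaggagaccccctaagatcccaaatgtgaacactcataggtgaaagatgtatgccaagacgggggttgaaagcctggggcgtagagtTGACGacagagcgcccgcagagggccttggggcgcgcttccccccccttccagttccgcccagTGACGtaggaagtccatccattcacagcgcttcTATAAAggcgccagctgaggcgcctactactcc
The Egr2 stretch stands before 1 of 5 annotated starts of the gene and lies within the span of its longer transcript models. It held a CArG box at -72 relative to the start, CRE cores at -111 and -55 and a CCAAT motif at -121. In Jun the proximal site lay at -45 and a CCAAT motif at -65, and in Fos CRE cores lay at -129 and -66 and a TATA motif at -33. Neither the Jun nor the Fos stretch held a CArG box, and bases further upstream were not searched. A CArG box was found in 1.47% of all 32851 windows of this length, a CRE core, which the full CRE contains, in 17.8%, TGACATCA in 2.93%, CCAAT in 33.8% and TATAAA in 12.4%. TGACTCA was found in 4.46% of windows and in none of the 11 windows of the 7 members for which one was used. The full CRE (TGACGTCA), found in 1.55% of windows, was in none of the 11 either. The Egr site GCGGGGGCG, found in 2.57% of windows, lay at -50 in Fosb and at -79 in Fosl2, and the variant GCGTGGGCG, found in 0.536%, was in none of the 11. Such matches describe the letters only.

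Values are on the log2 scale after robust multi-array averaging (RMA), and levels of different probe sets cannot be set against each other. Each gene was instead placed against a background gauge, the 95th percentile of 1027 olfactory receptor genes on the same array, which was 5.07 to 5.12 in the third ventricle and 5.03 to 5.16 in the lateral ventricle arrays. Jun, Jund, Egr1, Egr2 and Ier2 lay above it in all 6 arrays. Fos, Fosl2 and Junb lay above it in some arrays, and Fosb and Fosl1 in 0 of 6. Since RMA draws dim values toward the background, differences of those 5 genes may be understated. Over all genes each pair of arrays from the third ventricle had a correlation of 0.995. Array 2 of the lateral ventricle had a correlation of 0.991 with every array of the third ventricle, and of 0.980 and 0.982 with its own group's arrays 1 and 3. Of 10 stem cell markers, 9, with the fatty acid binding protein Fabp7 and the intermediate filament Vim among them, lay above the gauge in all 6 arrays. So did 8 of 9 oligodendrocyte progenitor markers, 6 of 8 astrocyte markers and 11020 of all 19938 genes.

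**Figure D1:**
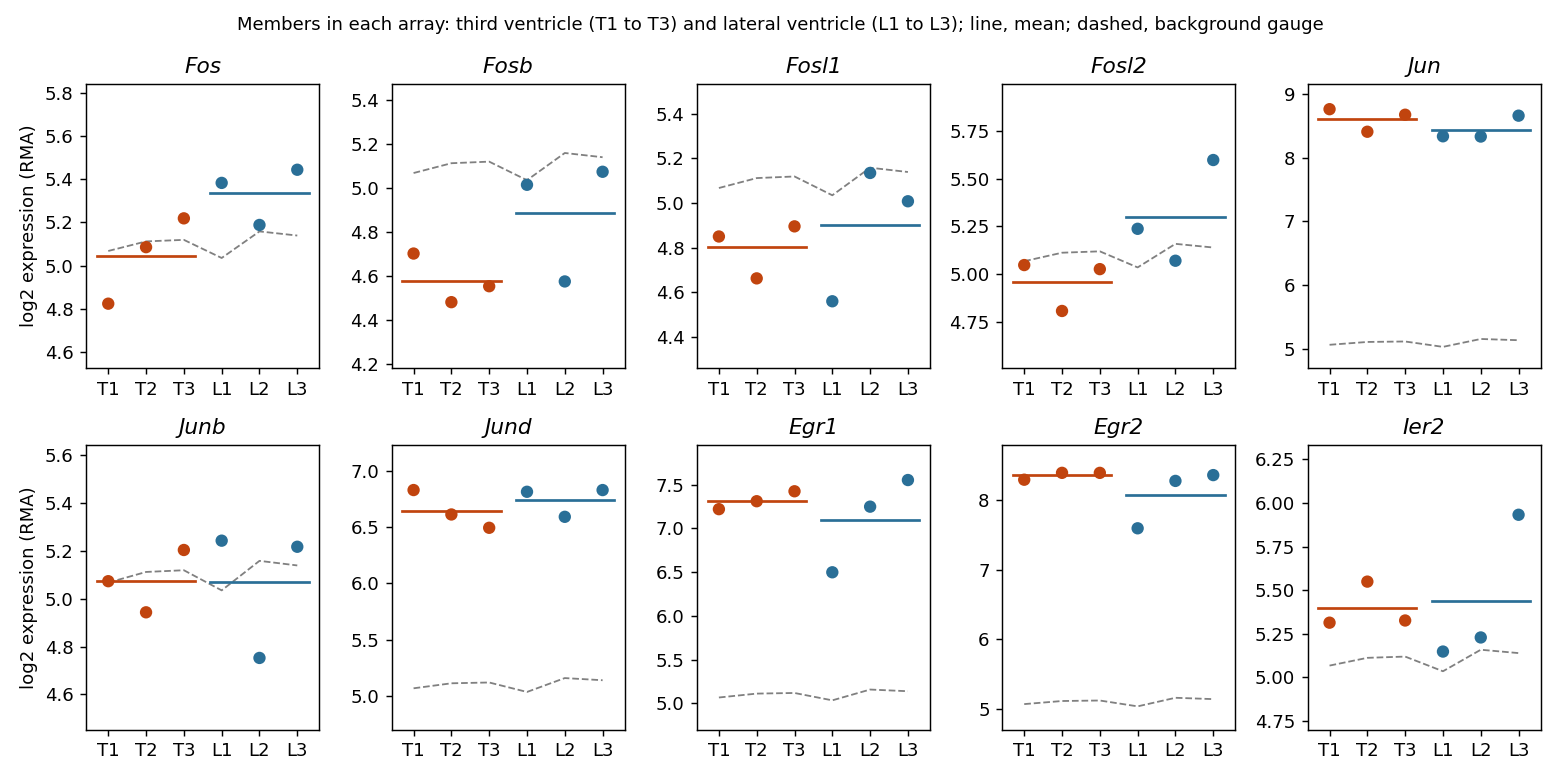
Log2 expression (vertical axis, own scale per gene) of the 10 members in the third ventricle arrays T1 to T3 and lateral ventricle arrays L1 to L3, with the mean of each region as a line (SDs are in the text) and the background gauge dashed. Egr1 and Egr2 are low in L1, at 6.50 and 7.60, Ier2 is high in L3, at 5.93, and Fosb and Fosl1 lie below the gauge in all arrays.

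None of the 10 members passed the test between the regions, and the differences of largest size were -0.34 for Fosl2, -0.31 for Fosb, -0.30 for Fos and 0.28 for Egr2. In bulk cultures, fewer cells that express a gene and less RNA of it per cell cannot be told apart. At an adjusted p below 0.05 in limma, with Benjamini-Hochberg adjustment over all genes, 0 of 10 were called, against 46 of all genes, or 0.231%. At an unadjusted p below 0.05 there were 2 of 10, Fos and Fosl2, against 2521 of all genes, or 12.6%. The members' median difference was -0.07 on the log2 scale, as the third minus the lateral ventricle, and that of all genes -0.02. It was -0.15 without array 2 and 0.016 without array 3 of the lateral ventricle, so its sign rested on array 3. The 95% intervals of the 10 differences ran from -0.68 at their lowest, for Fosl2, to 0.77 at their highest, for Egr1, so that changes beyond 1.71-fold upward or 1.60-fold downward in the third ventricle cultures lay outside every interval. An interval of this width does not show that the regions are alike. For Fos, Fosb, Fosl1, Fosl2 and Junb, which were dim, the intervals bound array values that may understate differences in RNA. Groups did not overlap for 1 of 10 members, Fosl2, which was lower in the third ventricle. They did not overlap for 17.0% of all genes, with 9.24% lower and 7.77% higher in the third ventricle.

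**Figure D2:**
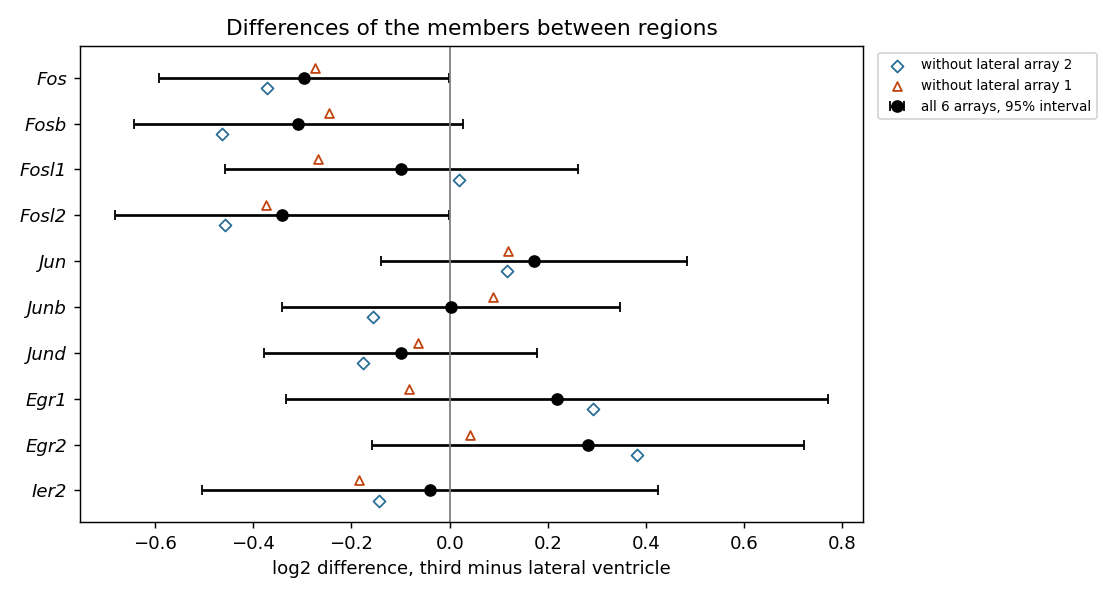
Log2 difference of each member, the third minus the lateral ventricle, with its 95% interval over all 6 arrays (black), and the same without array 1 (triangles) or array 2 (diamonds) of the lateral ventricle. For Egr1 the difference was 0.22 over all arrays and -0.08 without lateral ventricle array 1.

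Egr1, the zinc finger factor induced by most mitogens, had log2 values of 7.22, 7.31 and 7.42 in the third ventricle cultures, against 6.50, 7.25 and 7.55 in the lateral ventricle cultures. The lateral cultures held both the lowest and the highest of the 6 values, and the groups overlapped. The mean was 7.32 ± 0.10 in the third and 7.10 ± 0.54 in lateral ventricle cultures (SD, n = 3 each), a difference of 0.22 (SE 0.24, limma adjusted p = 0.759). Without lateral ventricle array 1 the difference was -0.08 (SE 0.13, limma adjusted p = 0.871), so its sign rested on that array.

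Egr2, or Krox20, which acts in hindbrain segments and in myelinating Schwann cells, also had its lowest value in array 1 of the lateral ventricle. Its values were 8.29, 8.39 and 8.39 in the third ventricle cultures, against 7.60, 8.28 and 8.36 in the lateral ventricle cultures. Lateral ventricle array 1 again lay below the other 5, which covered a narrow band. The means were 8.36 ± 0.06 in the third and 8.08 ± 0.42 in lateral ventricle cultures (SD, n = 3 each), and the difference was 0.28 (SE 0.19, limma adjusted p = 0.591). Leaving out array 1 of the lateral ventricle gave 0.04, and leaving out array 2 gave 0.38.

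Jun, the AP-1 subunit that can bind DNA as a homodimer, read 8.76, 8.40 and 8.67 in the third ventricle cultures, against 8.33, 8.33 and 8.65 in the lateral ventricle cultures. The groups overlapped, and 2 of the lateral arrays lay below every array of the third ventricle. Its difference was 0.17 (95% interval -0.14 to 0.48, limma adjusted p = 0.651). Jund, the Jun protein that is present in most cells without stimulation and counts as the least inducible of the family, had values of 6.83, 6.61 and 6.49 in the third and 6.81, 6.59 and 6.83 in the lateral ventricle cultures. These ranges coincided almost fully, and the difference was -0.10 (95% interval -0.38 to 0.18, limma adjusted p = 0.785). Junb, a weaker transcriptional activator that can oppose Jun, lay near the gauge, at 5.07, 4.94 and 5.20 in the third and 5.24, 4.75 and 5.22 in lateral ventricle cultures, with a difference of 0.0026 (SE 0.15). Lateral ventricle array 2 was the lowest array for Junb, whose difference was -0.16 without it.

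Among the Fos genes, 3 of the 4 had a negative difference near -0.3 over all arrays. Fos, the partner of Jun in the classical AP-1 dimer, had values of 4.82, 5.09 and 5.22 in the third ventricle cultures, against 5.38, 5.19 and 5.44 in the lateral ventricle cultures. It exceeded the gauge in 1 of 3 arrays of the third and 3 of 3 of the lateral ventricle, and the groups overlapped by 1 array on each side. The difference was -0.30 (SE 0.13, limma adjusted p = 0.394), and it was -0.19 without array 1 of the third ventricle. Fosl2, which encodes Fra-2, had values of 5.05, 4.81 and 5.03 in the third and 5.24, 5.07 and 5.60 in lateral ventricle cultures. The groups did not overlap, but the gap between them was small and 0 of 3 arrays of the third ventricle exceeded the gauge, against 2 of 3 of the lateral ventricle. Its difference was -0.34 (SE 0.15, limma adjusted p = 0.393), and it was -0.19 without array 3 of the lateral ventricle.

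Fosb, which in neurons gives rise to the stable ΔFosB form, had values of 4.70, 4.48 and 4.55 in the third ventricle cultures, against 5.01, 4.58 and 5.07 in the lateral ventricle cultures. Lateral ventricle array 2 lay among the third ventricle arrays, and arrays 1 and 3 lay above all of them. The difference was -0.31 (SE 0.15, limma adjusted p = 0.424). Without lateral ventricle array 2 it was -0.46 (SE 0.11, limma adjusted p = 0.0342). No other member passed in any of the 14 alternatives. The adjusted p of Fosb was 0.158 to 0.734 in the other alternatives with at least 2 arrays a region, and 0.996 with array 2 as the only lateral array. In the comparison without lateral ventricle array 2, 1 of 10 members passed, as lower. Of all genes 8.25% passed there, 3.88% as lower and 4.37% as higher in the third ventricle. The array left out was the lateral one that correlated best with the third ventricle arrays over all genes. Fosb lay below the gauge in every array. Fosl1, which encodes Fra-1, also stayed below the gauge, with values of 4.66 to 4.90 in the third and 4.56 to 5.13 in lateral ventricle cultures and a difference of -0.10 (SE 0.16), or 0.02 without lateral ventricle array 2.

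Ier2, a small immediate early gene induced by serum and growth factors, had values of 5.31, 5.55 and 5.33 in the third ventricle cultures, against 5.15, 5.23 and 5.93 in the lateral ventricle cultures. The highest value was that of lateral ventricle array 3 and the lowest that of lateral ventricle array 1. Lateral ventricle arrays 1 and 2 lay only a little above their gauges of 5.03 and 5.16. The difference was -0.04 (SE 0.20, limma adjusted p = 0.957), and it was 0.21 without lateral ventricle array 3.

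The members varied more among the lateral than among the third ventricle cultures. The SD was larger in the lateral ventricle for 8 of 10 members, all but Fos and Jund, and for 66.8% of all genes. The members' median SD was 0.13 in the third and 0.27 in the lateral ventricle cultures, where the median of all genes was 0.10 in the third and 0.15 in the lateral ventricle. Egr2 had an SD of 0.06 in the third ventricle, above that of 20.4% of genes, and of 0.42 in the lateral ventricle, above that of 93.9%. For Egr1 the SD was 0.10 in the third ventricle, above 48.6% of genes, and 0.54 in the lateral ventricle, above 96.6%. Ier2 had SDs of 0.13 and 0.43 in the third and the lateral ventricle, the lateral one above 94.2% of genes. The lateral SD was 7.37 times the SD of the third ventricle for Egr2, 5.30 times for Egr1 and 3.26 times for Ier2. These ratios come from 3 arrays each and were not tested, and 1 array carried each of them. Without array 1 of the lateral ventricle the lateral SD was 0.06 for Egr2 and 0.22 for Egr1, and without array 3 it was 0.06 for Ier2. Fos had the reverse order, 0.20 in the third and 0.13 in lateral ventricle cultures.

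**Figure D3:**
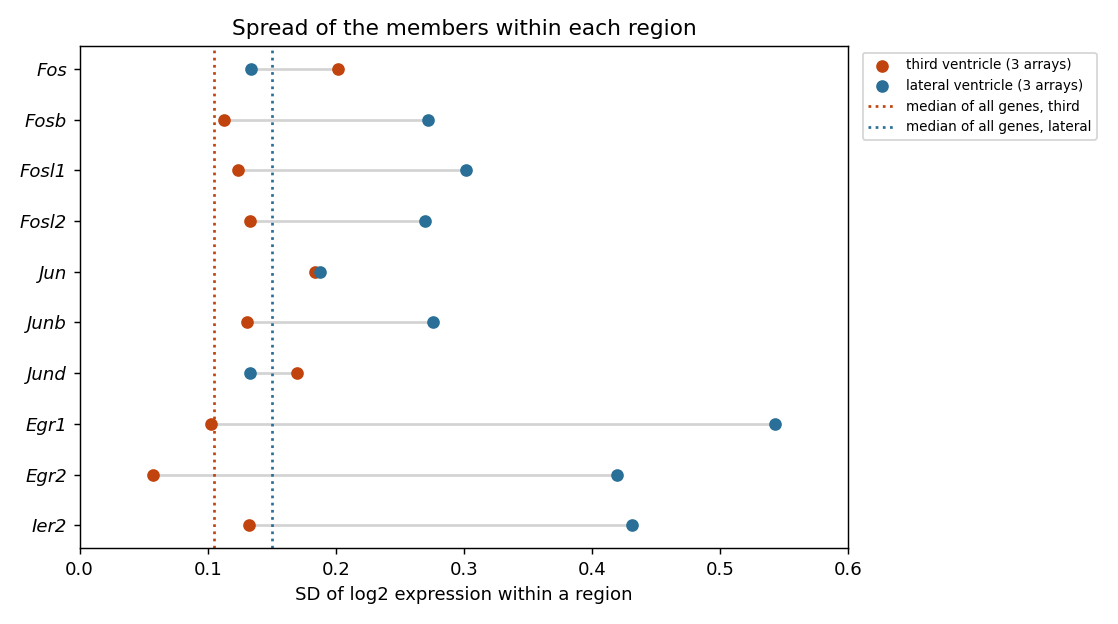
SD of log2 expression over the 3 arrays of each region (horizontal axis) for the 10 members, with the median SD of all genes dotted. Egr1, Egr2 and Ier2 lie at 0.10, 0.06 and 0.13 in the third ventricle and at 0.54, 0.42 and 0.43 in the lateral ventricle cultures.

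The spread did not follow a single pattern. Relative to each gene's mean over the 6 arrays, Egr1 lay at -0.71 and Egr2 at -0.62 in lateral ventricle array 1, while both were above their means in lateral ventricle array 3, by 0.34 and 0.14. Lateral ventricle arrays 1 and 3 correlated at 0.990 over all genes and were nevertheless the lowest and the highest array for Egr1. Ier2 and Fosl2 had their highest values in lateral ventricle array 3, at 0.52 and 0.47 above their means. Of the 10 members, 5 were highest in lateral ventricle array 3, as were 19.5% of all genes, and 4 were lowest in lateral ventricle array 1, as were 23.3% of all genes.

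Cell cycle genes had another pattern over the same arrays. Their list median, over 31 genes including the S phase clamp Pcna and the topoisomerase Top2a, lay at 0.55 to 0.58 in the third ventricle arrays and at -1.36, 0.57 and -0.90 in lateral ventricle arrays 1, 2 and 3. Over all arrays 0 of the 31 passed in limma, with a median difference of 1.12. At an unadjusted p below 0.05 there were 27, beside 12.6% of all genes. All 31 passed as higher without lateral ventricle array 2, beside 4.37% of all genes. Egr1 and Egr2 shared the low value of lateral ventricle array 1 with this list but not that of array 3. Among the lateral ventricle arrays, Fos, Fosb and Fosl2 ran the opposite way, with higher values in arrays 1 and 3 than in array 2. So did Junb and Jund, so this order was not particular to the Fos genes. The part of the cell cycle state in either pattern was not tested.

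**Figure D4:**
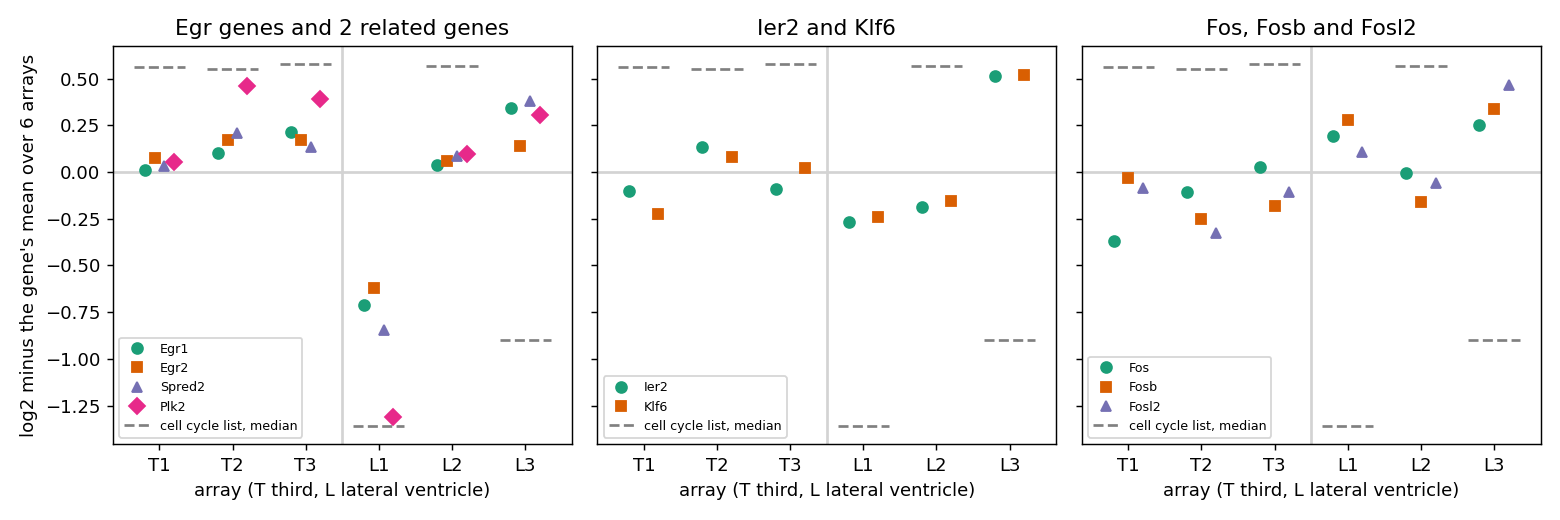
Log2 expression minus each gene's mean over 6 arrays (vertical axis) by array, T for the third and L for the lateral ventricle, with the median of 31 cell cycle genes as dashed bars. Egr1, Egr2, Spred2 and Plk2 are low in L1 only, and Ier2 and Klf6 are high in L3. Fos, Fosb and Fosl2 are higher in L1 and L3 than in L2. Spred2 and Klf6 were chosen for their likeness to Egr1 and Ier2.

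The genes with the pattern most like that of Egr1, by the root mean square difference of centred log2 values over the 6 arrays, were Hectd2 (0.08), Spred2 (0.08) and Ybx3 (0.09) among 11569 genes with a mean above the gauge. Egr2 was the fifth most like it, at 0.10, where the median gene lay at 0.37. Spred2, an inhibitor of Ras to ERK signalling, had values of 9.15, 9.33 and 9.25 in the third ventricle cultures, against 8.27, 9.20 and 9.50 in the lateral ventricle cultures. Lateral ventricle array 1 lay lowest and array 3 highest, as for Egr1, but Spred2 was chosen for this likeness. The same holds for Klf6 beside Ier2 below. For Ier2 the closest genes were the aspartate aminotransferase Got1 (0.06), Klf6 (0.07) and Ccdc107 (0.08). Klf6 is itself an immediate early zinc finger factor, and it read 7.02, 7.33 and 7.27 in the third and 7.01, 7.09 and 7.77 in lateral ventricle cultures. For Fos they were Csgalnact2 (0.03), an enzyme of chondroitin sulfate synthesis, the small nucleolar RNA Snord53 (0.04) and Dtd1 (0.05), and with so narrow a range near background such closeness says little.

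Other immediate early genes gave no call either. Of 35 measured, 0 passed in either direction in limma and 5 had an unadjusted p below 0.05, as did 12.6% of all genes. Positive differences numbered 14 and negative ones 21, and the median was -0.04. Myc, the growth-promoting transcription factor, differed by 0.05 (SE 0.17, limma adjusted p = 0.933) and the polo-like kinase Plk2 by 0.60 (SE 0.38, limma adjusted p = 0.556). Plk2 had values of 8.42, 8.83 and 8.76 in the third ventricle cultures, against 7.06, 8.46 and 8.67 in the lateral ventricle cultures. It too was low in lateral ventricle array 1, which was the lowest array for 15 of the 35 genes, while array 3 was the highest for 17. Chosen after their values were seen, the most negative difference was that of the basic leucine zipper repressor Nfil3, -1.26 (SE 0.46, limma adjusted p = 0.347), and the most positive that of the pseudokinase Trib1, 0.69 (SE 0.19, limma adjusted p = 0.276). Nfil3 read 6.51, 6.45 and 6.68 in the third and 7.84, 6.68 and 8.88 in lateral ventricle cultures. Its lateral arrays 1 and 3 lay above array 2, as for Fos, Fosb, Fosl2, Junb and Jund but not Fosl1. With array 2 of the lateral ventricle left out, Trib1 passed as higher and Atf3, Nr4a3 and Nfil3 as lower in the third ventricle. That is 1 and 3 of 35, beside 4.37% and 3.88% of all genes. Nr4a3 lay below the gauge in all 6 arrays. Egr3, a further Egr gene, was nearly level, between 6.27 and 6.39 in the third and at 6.30 to 6.31 in lateral ventricle cultures.

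**Figure D5:**
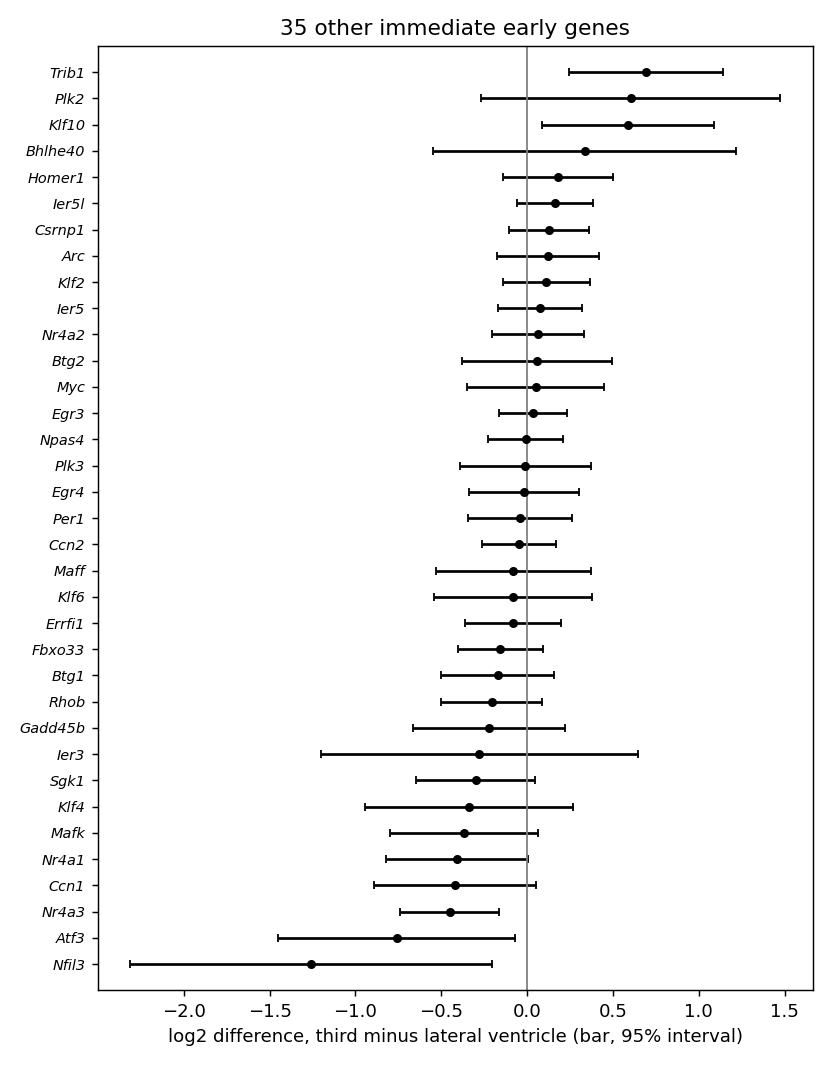
Log2 difference, the third minus the lateral ventricle, with its 95% interval, for 35 other immediate early genes ordered by difference. They run from -1.26 for Nfil3 to 0.69 for Trib1, and 0 of 35 passed at an adjusted p below 0.05.

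Feedback inhibitors of MAP kinase signalling, which growth factors induce alongside Egr genes, had 0 of 14 passing and a median of 0.04. Lateral ventricle array 1 was the lowest array for 10 of these 14, as for 23.3% of all genes. The list median there was -0.30 relative to each gene's mean, while it was 0.03 to 0.11 in the third ventricle arrays and 0.06 and 0.08 in lateral ventricle arrays 2 and 3. Spred1 differed by 0.31 (SE 0.15, limma adjusted p = 0.435) and Spred2 by 0.25 (SE 0.28, limma adjusted p = 0.759). Dusp6, the phosphatase that removes ERK activation and a widely used gauge of FGF signalling, was chosen after its values were seen. It had values of 7.76, 7.96 and 8.0005 in the third ventricle cultures, against 5.67, 7.33 and 7.37 in the lateral ventricle cultures. The groups did not overlap and array 1 lay far below the other lateral arrays, but the difference of 1.12 did not pass (SE 0.41, limma adjusted p = 0.347). Levels of active ERK were not measured.

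Upstream of the promoters, SRF and its partners had 0 of 6 passing and a median of 0.04. The ternary complex factor Elk4 differed by 0.05 (SE 0.09) and the SRF coactivator Mrtfb by 0.41 (SE 0.10, limma adjusted p = 0.239). Mrtfb and Elk3 passed as higher when array 2 of the lateral ventricle was left out, 2 of 6 beside 4.37% of all genes. ERK, JNK and p38 kinase genes had 0 of 13 passing and a median of -0.07, with the JNK gene Mapk8 at -0.08 and the ribosomal S6 kinase Rps6ka3 at 0.21. The p38 activator Map2k6 passed as higher in the comparison that omits array 2, as 1 of 13 beside the same share of all genes. The Egr corepressors Nab1 and Nab2, which bind Egr proteins and are also their targets, differed by 0.14 and 0.04, and neither passed. Regulators of AU-rich mRNA decay, proteins that shorten or, as Elavl1 does, prolong the life of Fos-type messages, had 0 of 8 passing and a median of -0.0013, with Hnrnpd at 0.18 and Tial1 at 0.05.

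Other basic leucine zipper genes had 0 of 20 passing and a median of -0.14, with the CREB factor Creb1 at 0.01 and the oxidative stress factor Nfe2l2 at -0.23. With array 2 of the lateral ventricle left out, Atf4, Atf5, Atf6, Ddit3 and Nfe2l1 passed as lower in the third ventricle cultures, which makes 5 of 20 beside the 3.88% of all genes. Known AP-1 target genes had 0 of 18 passing and a median of -0.0018, with cyclin D1 (Ccnd1) at 0.86 (SE 0.41, limma adjusted p = 0.429) and the heme oxygenase Hmox1 at -0.74 (SE 0.48, limma adjusted p = 0.575). Hmox1 passed as lower without lateral ventricle array 2, and 10 of the 18 lay below the gauge in all 6 arrays. Over these 8 related lists, 0 of 116 genes passed over all arrays in limma at an adjusted p below 0.05. At that threshold 13 passed without lateral ventricle array 2, or 11.2%, beside 8.25% of all genes. That array was the lateral one most like the third ventricle arrays over all genes. Without lateral ventricle array 1, or without array 3, 0 of the 116 passed. Over all arrays, beside the 5 other immediate early genes, an unadjusted p below 0.05 was found for 2 of 14 feedback inhibitors and 2 of 6 SRF genes. It was also found for 2 of 13 kinases, 3 of 20 other leucine zipper genes and 2 of 18 targets. Of the corepressors and decay regulators, 0 had such a p. The share of all genes with such a p was 12.6%.

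Heat shock genes, which tissue dissociation can induce together with immediate early genes, had 0 of 10 passing and a median of 0.03, with Hspe1 at 0.04 and Hspa8 at 0.10. Of the 10, 6 had a positive and 4 a negative difference. Hspa1a was at -0.98 (SE 0.49, limma adjusted p = 0.453), Hspb1 at -0.51 and Hsph1 at -0.35, chosen after their values were seen. Hspa1a read 6.08, 5.98 and 5.91 in the third and 7.13, 5.71 and 8.08 in lateral ventricle cultures. It passed as lower once array 2 of the lateral ventricle was left out, 1 of 10 beside 3.88% of all genes. Cells other than stem cells also express immediate early genes. Of the markers of 8 cell types, 67 measured entries in all, 2 passed, the oligodendrocyte progenitor genes Pdgfra and Lhfpl3, both lower in the third ventricle cultures. Pdgfra differed by -1.79 (SE 0.15, limma adjusted p = 0.00707) and Lhfpl3 by -1.22 (SE 0.11, limma adjusted p = 0.00746). Of the 9 measured markers of oligodendrocyte progenitors, 7 had a negative and 2 a positive difference. Olig1 was at 0.17, Olig2 at 0.09 and Cspg4 at -0.09, chosen after their values were seen. The part of oligodendrocyte progenitors in the members' values was not tested. The list medians ran from -0.21 for oligodendrocyte progenitors to 0.02 for endothelial and mural cells, with stem cells at -0.04, astrocytes at -0.08, neurons at -0.16, microglia at -0.03, meningeal fibroblasts at 0.0035 and ependymal and choroid cells at -0.03. Microglia respond to dissociation with strong Fos and Egr1 induction. Of their 10 markers, 1 lay above the gauge in all 6 arrays and 5 in none. Their summed linear level was 256 to 279 in the third and 268 to 293 in the lateral ventricle cultures. With most markers at or below the gauge in some array, this sum may be largely background.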

How the data were processed

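The deposited table holds log2 expression values of 35556 probe sets on 6 Affymetrix arrays. Per the submitters' processing notes, the authors used RMA in Expression Console 1.1 from Affymetrix, and no other setting is given in the sources used here. Per the labels' protocols, biotinylated cDNA was amplified with the NuGEN WT-Ovation Pico system from 500 pg to 50 ng of total RNA, which can add spread between arrays. The platform annotation gave 1 symbol to 21789 probe sets, several to 1621, and left 12146 unlisted. The brightest single-symbol probe set stood for a gene, which left 19938 genes with no filter on dim ones. Arrays were grouped by title, and the difference is the third minus the lateral ventricle, fitted with limma 3.58.1 in R 4.3.3 (lmFit, then eBayes with its default prior). P-values were adjusted by Benjamini-Hochberg across the whole table, with 0.05 as the threshold. This step was tested on simulated data. An exact two-sided permutation of 3 against 3 arrays cannot go below 0.1, so no single-gene permutation test was made. Precision is limited by the number of arrays. The design text speaks of 3 independent females, but no label links a replicate number to an animal, and p-values therefore reflect only how much these cultures differ.

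The 10 members, the 18 gene lists (224 of 236 entries measured, 4 through older symbols) and the background gauge were chosen with earlier results of these data known. Genes were named by a rule: all members, list members that passed (at most 4), otherwise the 2 brightest of a list, and the 3 genes most like Fos, Egr1 and Ier2, leaving out predicted genes. Others, such as those named for the comparison without lateral ventricle array 2, were chosen after their values were seen. Promoter windows of 7 members were used. Alternatives covered the probe set, dim genes, normalization, prior, array weights, the replicate number and left-out arrays. No batch label was given.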

Additional observations from a re-analysis of the deposited data

How the results depend on the processing

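Over the 14 alternatives, the 10 members gave 137 differences, of which 126 kept both direction and side of the threshold, 10 turned in sign and 1, Fosb without lateral ventricle array 2, passed. Fos, Fosl2, Jun and Egr2 kept their sign in all 14. Fosb, Fosl1 and Junb were removed by the filter on the lowest 40% of genes. Signs turned with array weights for Junb (-0.060), and from lateral ventricle array 2 alone for Fosb (0.0036), Jund (0.054) and Ier2 (0.17). With single arrays left out, Egr1 ranged from -0.082 to 0.44, Fosl1 from -0.27 to 0.019, Junb from -0.16 to 0.089 and Ier2 from -0.18 to 0.21. The count of members called was 0 to 1 when single arrays were left out and 0 in the other 8 alternatives. Genes called among all were 46 in all, 7, 4 and 4 without arrays 1, 2 and 3 of the third ventricle, 25, 1644 and 20 without those of the lateral ventricle, and 158 with array weights. Related list genes called ranged from 0 to 13, with 1 under array weights (Map2k6) and 1 from lateral ventricle array 2 alone (Mapk10). In that last comparison the spread comes from the third ventricle only and is taken to hold for the lone lateral array, and Fos and Fosl2 were at -0.15 and -0.11. The members' median SD in the third ventricle was 0.081 (without its array 2) to 0.155 with single arrays left out. The members' median difference ranged from -0.15 to 0.016 with single arrays left out and was 0.062 from lateral ventricle array 2 alone. With the replicate number as a block, which cannot move a difference in this balanced design (median -0.07), 0 members and 57 genes were called. Deviations of same-numbered arrays correlated at 0.24, 0.11 and 0.07, so the numbers were not taken to pair the arrays. The causes were not tested. Dim signal limits Fosb, Fosl1, Fosl2, Fos and Junb, and Ier2 lay only a little above the gauge in lateral ventricle arrays 1 and 2.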
